A study of Mus musculus with 16 samples.

Results

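The genes described here are 9 genes of the IL-1 pathway and the inflammasome, taken as the rows of that symbol in the expression matrices: the cytokines Il1a, Il1b and Il6, the receptor antagonist Il1rn, the decoy receptor Il1r2, the sensor Nlrp3, the caspases Casp1 and Casp4 and the pore-forming protein Gsdmd. They are 9 of the 32285 genes counted, each has a single row, and all 9 had counts. Their total over the 8 lanes ran from 2814 unique molecular identifiers (UMIs, each standing for 1 captured transcript) for Il6 to 105061 for Il1b. The data are droplet single-cell RNA-seq of CD45-enriched cells from subcutaneous B16 melanomas in C57BL/6J mice. Each mouse received 1000000 cells of the Bro4.1 B16 line, either B2m-null, that is, lacking the light chain of MHC class I, or control. Treatment was intraperitoneal, at 100 µg a dose on days 6, 9 and 12, with anti-CD40, an antibody against the costimulatory receptor CD40, or with a rat IgG2a isotype antibody. Tumours were taken on day 14. The 4 groups are called control isotype (5 mice), control CD40 (2 mice), B2m-null isotype (5 mice) and B2m-null CD40 (4 mice). The sample labels read WT and B2M KO and put the genotype on the strain, whereas the design text gives it to the B16 cells; the latter is followed here. Mice of a group were stained with hashtag antibodies, pooled and run on 1 lane, and each mouse is 1 replicate. The labels list 3 hashtags for every pool, whereas the matrices of 6 of the 8 lanes hold 2; the mice are counted here as the hashtags each matrix holds. The 2 control CD40 mice came from 1 pool that was run on 2 technical lanes. The isotype groups each came from a replicate 1 pool (mice 1 to 3) and a replicate 2 pool (mice 4 and 5), and the B2m-null CD40 group from a replicate 1 pool (mice 1 and 2) and a replicate 2 pool (mice 3 and 4). The labels do not say whether a pool was a separate experiment, so pool, handling and group cannot be told apart for control CD40.

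The lanes held 12894 to 17666 barcodes and 45985739 to 99264875 gene UMIs, with a median of 1715 to 4225 UMIs per barcode. Between 37.3% and 83.2% of the barcodes of a lane could be given to 1 mouse by hashtag. The lowest share was that of B2m-null isotype replicate 1, whose mice 2 and 3 rest on 466 and 250 macrophages. In melanoma-like cells B2m stood at 1155 to 2141 counts per 1000000 UMIs (CPM) in the control lanes and at 242 to 643 CPM in the B2m-null lanes, without overlap. The 2 technical lanes shared 70 barcode sequences, a number within the 41 to 92 shared by other pairs of lanes. Cells were clustered without the 9 genes and named from marker lists, which gave a monocyte gate (Chil3, Vcan), a macrophage gate of 7 clusters (C1qa, Mrc1, Adgre1), a neutrophil gate (S100a8, S100a9, Retnlg) and a dendritic cell gate, called cDC, of the cDC1, cDC2 and mature dendritic cell clusters. The mature cluster made 30.4%, 18.4%, 31.3% and 27.7% of the cDC gate in control isotype and CD40 and in B2m-null isotype and CD40. UMIs were summed per mouse and gate, with at least 20 cells, and given as CPM. The fit covered 8254, 8545, 6899 and 5633 macrophages in control isotype and CD40 and in B2m-null isotype and CD40, but only 153 neutrophils of 3 mice, 137 of 2, 181 of 2 and 296 of 4. The gates themselves differed in size: monocytes were 8.44% and 8.81% of haematopoietic cells in control isotype and B2m-null isotype and 1.56% and 2.49% in control CD40 and B2m-null CD40.

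IL-1 alpha and IL-1 beta signal through the same receptor and drive fever, neutrophil recruitment and further cytokine release, IL-6 among it. IL-1 beta is made as an inactive precursor, and caspase-1 cleaves it after an inflammasome has formed from a sensor such as NLRP3 and the adaptor ASC, which Pycard encodes. Mouse caspase-11, the product of Casp4, senses bacterial lipopolysaccharide inside the cell, and both caspases cleave gasdermin D, whose fragment opens pores in the membrane through which IL-1 beta leaves and by which the cell can die. The receptor antagonist from Il1rn competes with both cytokines, and the type II receptor from Il1r2 binds them without signalling. Tumour monocytes, macrophages and neutrophils are known sources of IL-1 beta. The counts below are of transcripts and say nothing of cleavage or release.

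In the GENCODE vM21 annotation of GRCm38, Casp1 lies at chr9:5298517-5307265 on the forward strand and Casp4 at chr9:5308828-5336783 on the forward strand, with 1563 bases between them, and Casp12 lies 8647 bases beyond Casp4. Il1a (chr2:129299610-129309972 on the reverse strand) and Il1b (chr2:129364570-129371139 on the reverse strand) are neighbours 54598 bases apart, and Il1rn lies elsewhere on the same chromosome at chr2:24336853-24351494 on the forward strand. Gsdmd is at chr15:75862327-75867408 on the forward strand, Nlrp3 at chr11:59541568-59566956 on the forward strand, Il6 at chr5:30013114-30019981 on the forward strand and Il1r2 at chr1:40074079-40125231 on the forward strand. The annotation has a gene on the opposite strand over Il1a, Il1b (Il1bos) and Il1r2, and whether the counting used strand is not given in the sources used here. The 250 bases before the start site of 4 genes are shown because Casp1, Casp4 and Pycard each rose with anti-CD40 in B2m-null macrophages, where Il1b did not pass. They are from RefSeq on GRCm38.p6, 5′ to 3′ on the gene's strand, in lower case with matches to the NF-kB consensus in capitals.

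Casp1 (chr9:5298267-5298516, forward strand): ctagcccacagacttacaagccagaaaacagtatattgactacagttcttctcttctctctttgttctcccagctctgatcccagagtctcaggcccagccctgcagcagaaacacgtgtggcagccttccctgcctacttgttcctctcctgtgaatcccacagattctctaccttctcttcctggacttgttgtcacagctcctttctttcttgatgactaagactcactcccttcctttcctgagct
Casp4 (chr9:5308599-5308848, forward strand): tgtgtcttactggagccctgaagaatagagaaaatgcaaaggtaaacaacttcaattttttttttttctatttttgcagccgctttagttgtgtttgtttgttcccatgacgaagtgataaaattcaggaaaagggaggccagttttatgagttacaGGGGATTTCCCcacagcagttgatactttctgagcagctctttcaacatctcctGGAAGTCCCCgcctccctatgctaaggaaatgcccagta
Pycard (chr7:127993868-127994117, reverse strand): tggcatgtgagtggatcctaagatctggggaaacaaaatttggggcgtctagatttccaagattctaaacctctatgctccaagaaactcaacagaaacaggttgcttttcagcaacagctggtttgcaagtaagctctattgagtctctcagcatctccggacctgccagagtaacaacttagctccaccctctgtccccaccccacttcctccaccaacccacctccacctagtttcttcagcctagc
Il1b (chr2:129371140-129371389, reverse strand): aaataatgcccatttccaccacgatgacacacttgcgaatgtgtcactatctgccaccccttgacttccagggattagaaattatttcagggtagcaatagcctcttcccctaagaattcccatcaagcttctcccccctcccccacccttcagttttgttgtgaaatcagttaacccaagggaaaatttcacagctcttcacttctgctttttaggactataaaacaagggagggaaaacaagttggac

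Promoter windows of 250 bases before to 50 after the start were searched on both strands for the NF-kB consensus, for the interferon-stimulated response element (GAAA, any 2 bases, GAAA) and for the gamma-activated site TTCNNNGAA. Of 32851 windows of all genes, 8.46% held the first, 3.44% the second and 8.30% the third. Casp4 held NF-kB matches at -93 and -92, which overlap, and at -39 (GGAAGTCCCC), counted from the start site of its first window. Counted from that of its second window, the same matches lie at -104, -103 and -50. Il6 held one at -44 (GGGATTTTCC), Nlrp3 one at -186 in its second window (GGGAACCCCC), and Il1r2 a gamma-activated site at -111 (TTCAAGGAA). Casp1, Il1a, Il1b, Il1rn and Pycard held none of these letters in their windows. For Gsdmd no window was available, so it was not searched.

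In the 10 isotype-treated mice, the 9 genes fell into 2 patterns across the gates. The cytokines Il1a, Il1b and Il6, both IL-1 inhibitors Il1rn and Il1r2, and Nlrp3 had their highest mean in neutrophils, whereas Casp1, Casp4 and Gsdmd had theirs in monocytes. Il1b averaged 4050.0 ± 1557 CPM in neutrophils (SD, n = 5), 1323 ± 365 in monocytes, 519 in cDC2, 429 in mature dendritic cells, 356 in cDC1, 243 in macrophages and 237 in plasmacytoid dendritic cells. Monocytes stood above cDC2 (mean log2 difference 1.34, higher in 10 of 10 mice, exact paired permutation p = 0.00195, adjusted p = 0.0211), while the order from cDC2 down to plasmacytoid dendritic cells did not pass at any step. Il1rn averaged 936 ± 365 CPM in neutrophils, 202 in macrophages and 122 in monocytes, so that here macrophages stood above monocytes (mean log2 difference 0.85, higher in 10 of 10 mice, exact paired permutation p = 0.00195, adjusted p = 0.0211). Il1r2 averaged 516 CPM in neutrophils, 177 in cDC2 and 41.2 in mature dendritic cells. Its lowest mean was in macrophages at 6.25 CPM, next to 8.39 in plasmacytoid dendritic cells, which were higher in 3 of 8 paired mice. The step from cDC2 to mature dendritic cells passed (mean log2 difference 2.197, higher in 9 of 9 mice, exact paired permutation p = 0.00391, adjusted p = 0.0264).

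Casp1 averaged 126 ± 49.6 CPM in monocytes and 71.0 ± 21.7 in macrophages (SD, n = 10 each), a step that passed (mean log2 difference 0.77, higher in 10 of 10 mice, exact paired permutation p = 0.00195, adjusted p = 0.0211). Nlrp3 averaged 205 CPM in monocytes and 94.2 in macrophages (mean log2 difference 1.12, higher in 10 of 10 mice, exact paired permutation p = 0.00195, adjusted p = 0.0211). Gsdmd averaged 87.9 CPM in monocytes and 57.5 in cDC2 (mean log2 difference 0.61, higher in 10 of 10 mice, exact paired permutation p = 0.00195, adjusted p = 0.0211), and macrophages were last at 33.3 CPM. Casp4 ran from 134 CPM in monocytes and 94.8 in neutrophils to 27.6 in cDC1, with no step passing. Il6 averaged 80.1 CPM in neutrophils, 26.8 in monocytes, 18.4 in mature dendritic cells and 5.97 in macrophages, and Il1a 87.8 CPM in neutrophils and 12.5 in macrophages. In all, 9 of 54 neighbouring steps passed. Neutrophils could be paired with another gate in 5 mice, for which the smallest possible p is 0.0625, so their place at the top is given as a description: Il1b and Il1rn were each higher in neutrophils than in the next gate in 5 of 5 mice. Il6 was higher than in monocytes in 4 of 5, with a mean log2 difference of 0.57 (SD 2.11). Mast cells or basophils were the marker class next to neutrophils for the neutrophil cluster. At clustering resolution 2 a cluster of 88 cells was named so, beside 1059 neutrophils. The part of such cells in the neutrophil levels was not tested. Among cells with at least 1000 UMIs, each thinned to 1000, the share with an Il1b UMI in control isotype was 75.3% of neutrophils, 54.4% of monocytes and 18.3% of macrophages (30.99% of all macrophages unthinned). It was 2.15% of CD8 T cells, which should lack the transcript. The part of free RNA and of doublets in that share was not tested. Cells with fewer UMIs were left out, and median UMIs per neutrophil were only 726 to 795 in control isotype.

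**Figure D1:**
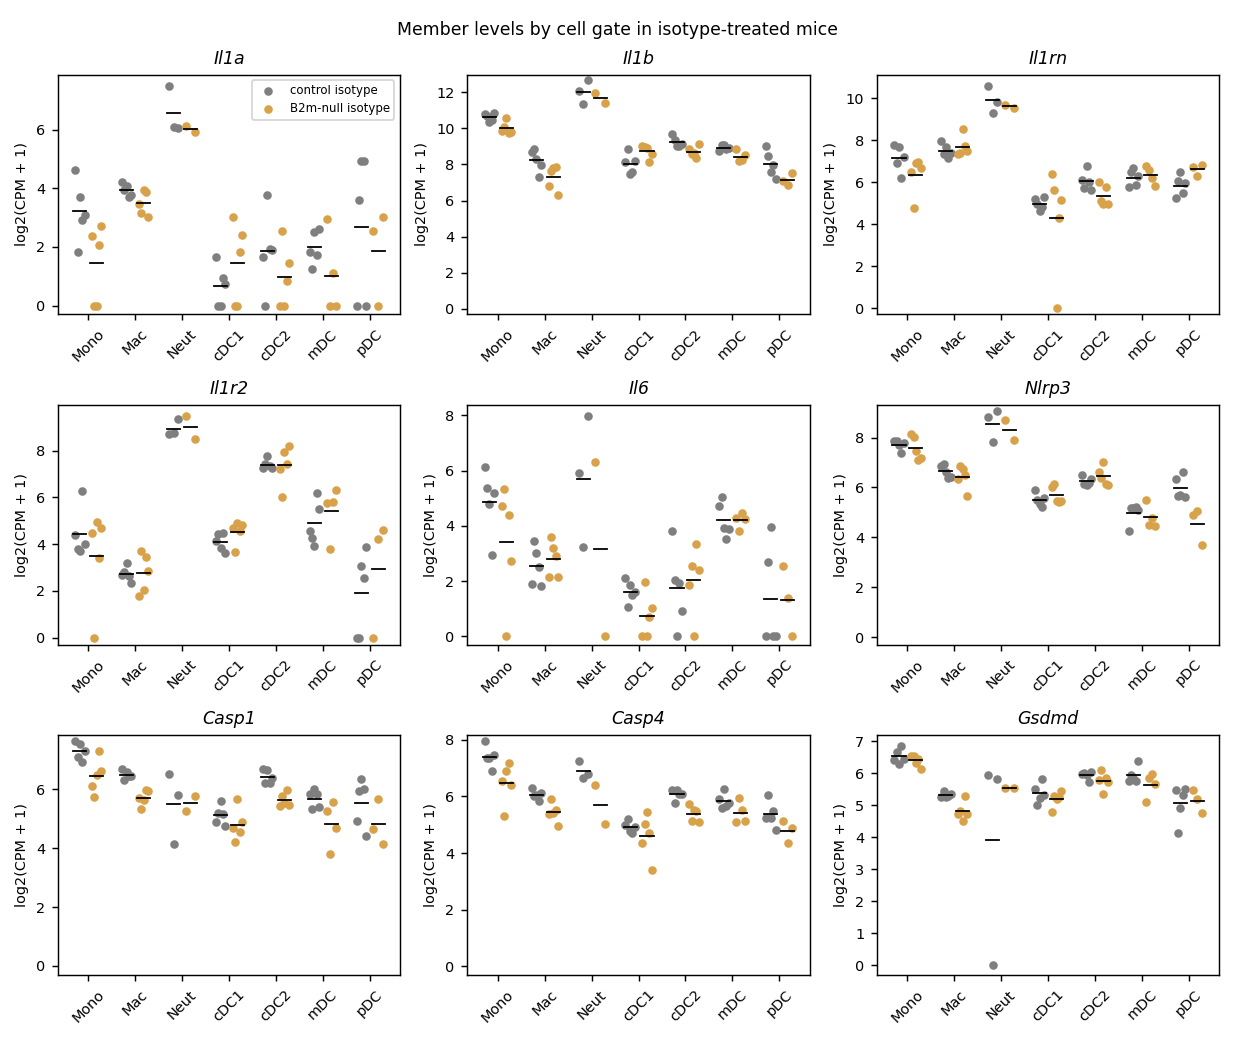
Level of each of the 9 genes as log2(CPM + 1) in the isotype-treated mice, by gate; each point is 1 mouse with at least 20 cells of the gate and the line is the mean. Il1b, Il1rn, Il1r2 and Il6 have their highest mean CPM in neutrophils, Il6 in 4 of 5 paired mice, and Casp1, Casp4 and Gsdmd in monocytes.

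Anti-CD40 was compared with isotype in each tumour genotype, and the genotypes with each other under each antibody, in 1 edgeR quasi-likelihood fit per gate. A gene passed at an adjusted p under 0.05 over all genes tested in that gate. Of 36 pairs of gene and gate, 34 could be tested, since Il1a fell under the low-count filter in monocytes and cDC. Anti-CD40 in control tumours changed 2 of the 9 genes in macrophages, Il1b and Il1r2, both downwards, where 20.3% of all genes passed and 9.12% were lower, and 1 of 8 in monocytes, Casp1, also downwards, where 8.31% passed and 3.71% were lower. In B2m-null tumours it raised 5 of 9 in macrophages (Il1a, Il1rn, Casp1, Casp4 and Gsdmd; background 31.5%, 15.9% higher), 1 of 8 in monocytes (Gsdmd; background 13.3%, 8.22% higher) and 3 of 8 in cDC (Casp1, Casp4 and Gsdmd; background 11.3%, 6.13% higher), and it lowered none. In cDC of control tumours 0 of 8 passed, against 3.55% of all genes. The median log2 change of the 9 genes in macrophages was 0.08 in control and 0.74 in B2m-null tumours, against -0.00347 and -0.00820 over all genes. Each call was repeated under up to 37 alternatives, which were other tests, scalings, filters and gates and fits without each mouse or pool, and the number that kept it is given beside most calls, with settings that ended it. The mice and pools left out include those outside the compared groups. Such fits leave both compared groups whole, so not every counted alternative puts a call to the test.

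Under isotype, B2m-null tumours had lower macrophage Casp1, Casp4 and Gsdmd than control tumours, 3 of 9 genes where 6.56% of all genes passed and 3.71% were lower, and lower monocyte Il1b, 1 of 8 genes where 2.28% passed and 1.71% were lower; cDC had 0 of 8 against 2.09%. Under anti-CD40 no test of the 34 in the whole gates passed edgeR between the genotypes, where 11% of all genes did in macrophages, 5.64% in monocytes and 0.797% in cDC; 8 of the 34 had an unadjusted p under 0.05, and DESeq2 called 0. The CD40 effect itself differed between the genotypes in 6 tests: Il1b, Casp1 and Gsdmd in macrophages (15.4% of all genes passed), Casp1 in monocytes (7.63%), and Casp1 and Gsdmd in cDC (4.15%). In each the effect was the more positive one in B2m-null tumours, as it was for 7.4%, 4.94% and 2.38% of all genes in these gates. These comparisons share groups: the B2m-null isotype mice enter both the comparison of genotypes under isotype and the CD40 effect in B2m-null tumours, so the lower caspase levels in the one and the rises in the other are not independent. Without TMM scaling, the median of all genes moved to -0.15 in macrophages of control and -0.20 of B2m-null tumours for the CD40 effect, and to values between -0.15 and 0.00 in the other gates; changes below are relative to it, and all 22 calls kept their direction and passed under that scaling and under RLE.

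**Figure D2:**
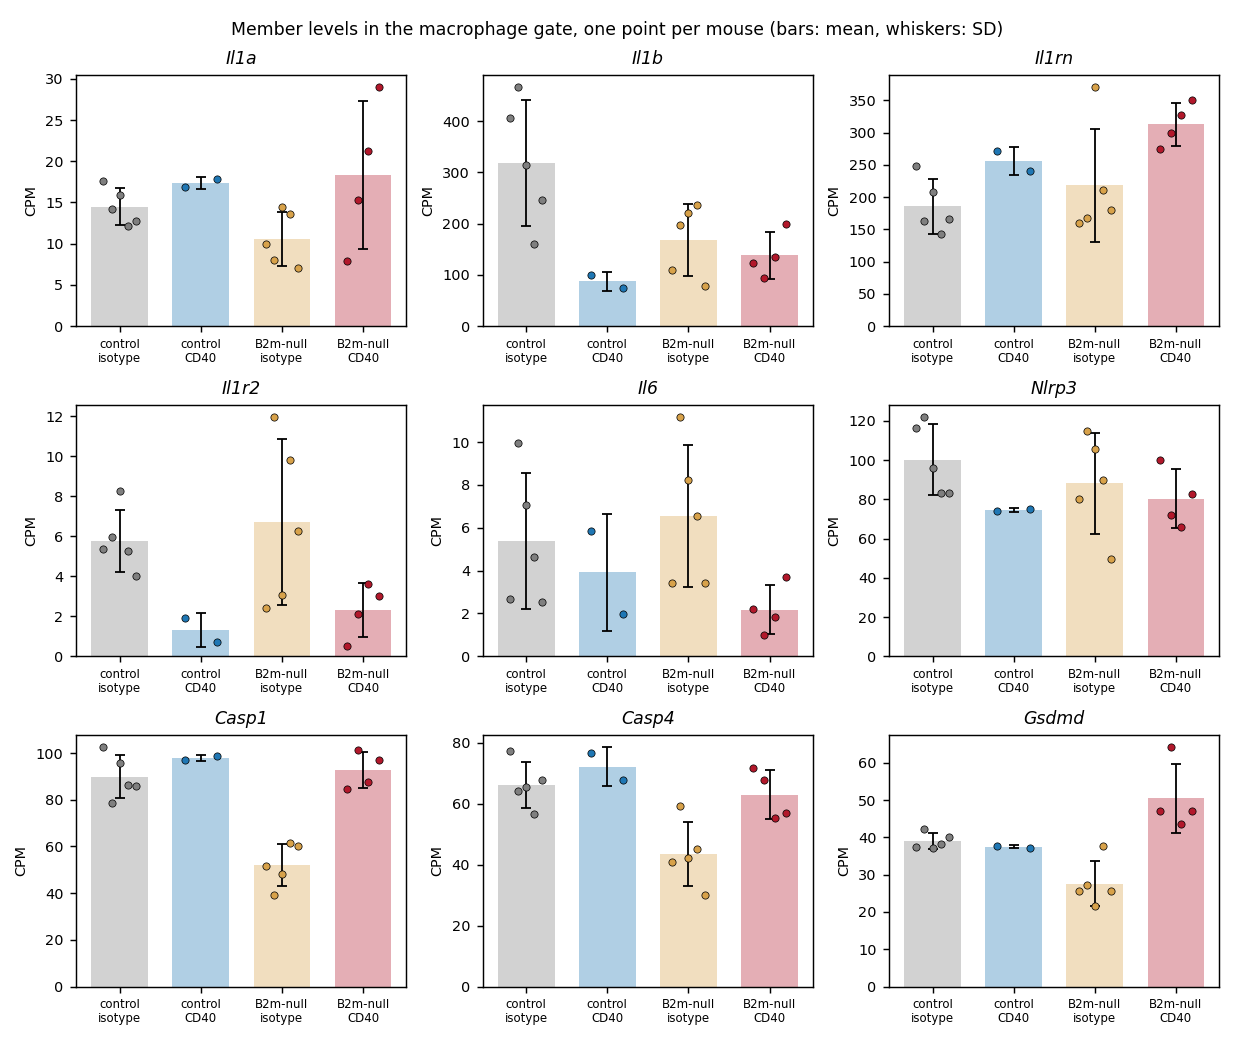
CPM of each of the 9 genes in the macrophage gate; points are mice, bars group means and whiskers the SD, for control isotype (n = 5), control CD40 (n = 2), B2m-null isotype (n = 5) and B2m-null CD40 (n = 4). Il1b is lowest in control CD40, and Casp1, Casp4 and Gsdmd are lowest in B2m-null isotype.

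Of the cytokines, Il1b in macrophages was the one most clearly lower after anti-CD40, and only in control tumours did it pass. It stood at 407, 468, 314, 159.7 and 245 CPM in the 5 control isotype mice and at 99.8 and 74.7 CPM in the 2 control CD40 mice. In B2m-null tumours it stood at 110.2, 197, 221, 235 and 78.0 CPM with isotype and at 124, 93.2, 135 and 199.97 CPM with anti-CD40. Both control CD40 mice lay below all control isotype mice, whereas the B2m-null groups overlapped over most of their range. The change was 3.33-fold downwards in control tumours (log2 change -1.73 ± 0.45, edgeR adjusted p = 0.0118) and -0.05 on the log2 scale in B2m-null tumours (adjusted p = 0.938), and the difference of the effects passed (log2 change 1.68 ± 0.54, edgeR adjusted p = 0.0436). The control tumour call held in 33 of 36 alternatives. The call was lost without the control isotype replicate 1 pool (log2 -1.08, adjusted p = 0.144), without control CD40 mouse 1 (log2 -1.89, adjusted p = 0.0752) and without control CD40 mouse 2 (log2 -1.59, adjusted p = 0.128). The difference of the effects held in 23 of 36 alternatives. Significance was lost without the B2m-null CD40 replicate 2 pool (log2 1.27, adjusted p = 0.147), without the B2m-null isotype replicate 1 pool (log2 1.75, adjusted p = 0.108), without the control isotype replicate 1 pool (log2 1.02, adjusted p = 0.254), without any 1 of B2m-null CD40 mouse 3 or 4, B2m-null isotype mouse 1, control CD40 mouse 1 or 2 and control isotype mouse 1 or 2 or 3 (log2 1.42 to 1.85, adjusted p 0.0577 to 0.171), with the lane as the unit and under limma-voom with the pool as a random block. The blocked value was log2 1.70 (adjusted p = 0.0683), and the value by lane had an adjusted p of 0.126. Under isotype the genotypes differed by -0.9990 ± 0.32 on the log2 scale, which missed the threshold (adjusted p = 0.0663). The summed level of the monocyte marker list in the macrophage gate was also lower after anti-CD40, in both genotypes and without overlap, at 948 to 1999 CPM in control isotype, 414 to 577 in control CD40, 1199 to 2324 in B2m-null isotype and 536 to 1035 in B2m-null CD40, with 9 or 10 of the 10 markers detected in each mouse; its part in the result was not tested.

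Monocyte Il1b was lower in B2m-null than in control tumours under isotype; under anti-CD40 the genotypes did not pass (-0.26 ± 0.19, adjusted p = 0.443), nor did either CD40 effect. It stood at 1746, 1631, 1321, 1429 and 1824 CPM in control isotype and at 928, 1079, 1525, 863 and 881 CPM in B2m-null isotype. After anti-CD40 it stood at 1382 and 1038 CPM in control and at 948, 889, 1019 and 999.8 CPM in B2m-null tumours. All but 1 of the 5 B2m-null isotype mice lay below every control isotype mouse, and mouse 3 lay within their range (log2 change -0.69 ± 0.14, edgeR adjusted p = 0.00710). The call held in 33 of 36 alternatives. The threshold was missed without the control isotype replicate 1 pool (log2 -0.70, adjusted p = 0.185), at clustering resolution 2 (log2 -0.67, adjusted p = 0.0525) and with the lane as the unit (log2 -0.81, adjusted p = 0.127). The CD40 effect in monocytes was -0.40 ± 0.18 in control and 0.03 ± 0.15 in B2m-null tumours (adjusted p = 0.198 and 0.935). In cDC, Il1b stood at 519, 546, 434, 387 and 433 CPM in control isotype and 312 and 291 in control CD40, groups that did not overlap but whose difference missed the threshold (log2 change -0.57 ± 0.18, edgeR adjusted p = 0.0930).

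Il1a was raised by anti-CD40 in macrophages of B2m-null tumours. Its CPM was 9.92, 7.99, 14.4, 13.6 and 7.01 in B2m-null isotype and 7.91, 15.3, 21.3 and 29.1 in B2m-null CD40. Mice 2 to 4 of B2m-null CD40 stood above every isotype mouse, and mouse 1 lay among them (log2 change 1.12 ± 0.28, edgeR adjusted p = 0.00666). The call held in 34 of 37 alternatives. The call was lost without the B2m-null CD40 replicate 2 pool (log2 0.38, adjusted p = 0.377), without the B2m-null isotype replicate 1 pool (log2 1.13, adjusted p = 0.0508) and with cells thinned to 2000 UMIs (log2 0.89, adjusted p = 0.0574). In control tumours Il1a stood at 17.6, 14.2, 15.9, 12.1 and 12.8 CPM with isotype and 16.9 and 17.9 with anti-CD40 (log2 change 0.42 ± 0.31, edgeR adjusted p = 0.365). The CD40 effects on Il1a were not shown to differ between genotypes (difference 0.70, edgeR adjusted p = 0.278). In monocytes and cDC Il1a was not tested, with at most 26.1 and 7.27 CPM in any mouse. Il6 did not pass in any of the 4 gates or 5 comparisons. In monocytes, the gate with its next highest mean after neutrophils, it stood at 69.2, 40.7, 26.6, 6.61 and 35.0 CPM in control isotype, 35.0 and 8.70 in control CD40, 25.3, 39.0, 0, 20.1 and 5.58 in B2m-null isotype and 53.7, 15.4, 13.6 and 24.4 in B2m-null CD40, and the groups overlapped. In macrophages it was between 0.999 and 11.2 CPM in every mouse, and the CD40 effect in B2m-null tumours was -1.0025 ± 0.49, adjusted p = 0.132.

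Among the inhibitors in macrophages, anti-CD40 raised Il1rn in B2m-null tumours and lowered Il1r2 in control tumours, and neither passed in the other genotype. Il1rn stood at 159.6, 168, 371, 212 and 180.0 CPM in B2m-null isotype and 274, 299, 327 and 351 in B2m-null CD40. The B2m-null CD40 mice lay above all isotype mice except mouse 3, which was the highest of all at 371 CPM and rests on 250 cells (log2 change 0.74 ± 0.21, edgeR adjusted p = 0.0143). The call held in 35 of 37 alternatives. Significance was lost without the B2m-null CD40 replicate 2 pool (log2 0.56, adjusted p = 0.153) and without the B2m-null isotype replicate 2 pool (log2 0.67, adjusted p = 0.0618). In control tumours Il1rn stood at 248, 164, 207, 142 and 166 CPM with isotype and 271 and 241 with anti-CD40, a difference that missed the threshold (log2 change 0.60 ± 0.26, edgeR adjusted p = 0.107), and the 2 effects were not shown to differ (difference 0.14 ± 0.34, adjusted p = 0.823). Il1r2 in macrophages stood at 5.38, 5.99, 8.25, 5.29 and 3.995 CPM in control isotype and 1.91 and 0.722 in control CD40, without overlap (4.71-fold lower, log2 change -2.23 ± 0.58, edgeR adjusted p = 0.0128). The call held in 34 of 36 alternatives. The threshold was missed without the control isotype replicate 1 pool (log2 -1.92, adjusted p = 0.0902) and without control CD40 mouse 2 (log2 -1.51, adjusted p = 0.2499). In B2m-null tumours it stood at 2.43, 12.0, 3.09, 9.83 and 6.26 CPM with isotype and 0.494, 2.14, 3.61 and 3.00 with anti-CD40 (log2 change -1.10 ± 0.43, edgeR adjusted p = 0.0588). The 2 effects on Il1r2 were not shown to differ (difference 1.13, edgeR adjusted p = 0.302). In cDC Il1r2 lay between 25.5 and 151 CPM, and no comparison of it passed there or in monocytes, where it ran from 0 to 77.1 CPM. Nor did Il1rn pass outside macrophages, with 26.0 to 220.3 CPM in monocytes and 10.95 to 91.3 in cDC. In cDC of B2m-null tumours its CD40 effect was -0.04 ± 0.32, adjusted p = 0.967, but log2 1.21, adjusted p = 0.00502 with the per-cell marker gate, and the cause was not tested.

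In macrophages of B2m-null tumours Casp1, Casp4 and Gsdmd were each lower than in control tumours under isotype, and each rose with anti-CD40. Macrophage Casp1 stood at 103, 78.7, 95.9, 86.3 and 86.0 CPM in control isotype and 97.0 and 98.9 in control CD40. It stood at 51.6, 39.2, 48.3, 61.4 and 60.2 CPM in B2m-null isotype and 84.7, 102, 87.7 and 96.9 in B2m-null CD40. The 5 B2m-null isotype mice lay below every mouse of the other groups. Anti-CD40 raised Casp1 1.96-fold in B2m-null tumours (log2 change 0.97 ± 0.12, edgeR adjusted p = 5.68e-05), a call that held in 37 of 37 alternatives, and left it at 0.26 ± 0.15, adjusted p = 0.217 in control tumours. The difference of the effects was 0.71 ± 0.20, adjusted p = 0.0240. Under isotype Casp1 was lower in B2m-null than in control tumours (log2 change -0.79 ± 0.12, edgeR adjusted p = 0.00320). That call held in 35 of 37 alternatives. The call was lost without the B2m-null isotype replicate 1 pool (log2 -0.58, adjusted p = 0.0696) and without the control isotype replicate 1 pool (log2 -0.72, adjusted p = 0.0990). The difference of the effects held in 29 of 36 alternatives. Significance was lost without the B2m-null CD40 replicate 2 pool (log2 0.67, adjusted p = 0.0538), without the B2m-null isotype replicate 1 pool (log2 0.53, adjusted p = 0.0746), without the control isotype replicate 1 pool (log2 0.64, adjusted p = 0.0870), without control CD40 mouse 1 (log2 0.65, adjusted p = 0.134), without control CD40 mouse 2 (log2 0.78, adjusted p = 0.0680), with cells thinned to 2000 UMIs and with the lane as the unit.

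Macrophage Gsdmd stood at 37.5, 42.3, 37.3, 38.3 and 40.1 CPM in control isotype and 37.8 and 37.2 in control CD40, which overlap. It stood at 25.7, 27.2, 21.6, 37.8 and 25.6 CPM in B2m-null isotype and 46.9, 64.2, 43.7 and 47.1 in B2m-null CD40, without overlap. The rise in B2m-null tumours was 2.00-fold (log2 change 1.00 ± 0.13, edgeR adjusted p = 7.74e-05) and held in 37 of 37 alternatives. In control tumours the change was 0.08 ± 0.16, adjusted p = 0.749, and the effects differed by 0.91 ± 0.21, adjusted p = 0.00991. The difference of the effects held in 32 of 36 alternatives. The threshold was missed without the control isotype replicate 1 pool (log2 0.92, adjusted p = 0.0504), without control CD40 mouse 1 (log2 0.88, adjusted p = 0.0689), with cells thinned to 2000 UMIs (log2 0.72, adjusted p = 0.0687) and with the lane as the unit (log2 0.98, adjusted p = 0.0980). Under isotype the B2m-null level was lower (log2 change -0.49 ± 0.13, edgeR adjusted p = 0.0310), with mouse 4 of B2m-null isotype inside the control isotype range. The call held in 23 of 37 alternatives. The call was lost without the B2m-null isotype replicate 1 pool (log2 -0.32, adjusted p = 0.354), without the control isotype replicate 1 pool (log2 -0.50, adjusted p = 0.288), without the control isotype replicate 2 pool (log2 -0.50, adjusted p = 0.0804), without any 1 of B2m-null isotype mouse 1 or 2 or 3 or 5 and control isotype mouse 1 or 2 or 3 or 5 (log2 -0.51 to -0.44, adjusted p 0.0508 to 0.0918), with cells thinned to 2000 UMIs, with the lane as the unit and under limma-voom with the pool as a random block. Casp4 stood at 77.3, 64.1, 65.4, 56.6 and 67.9 CPM in control isotype and 76.8 and 67.7 in control CD40. It stood at 40.7, 59.1, 42.2, 45.1 and 29.9 in B2m-null isotype and 71.9, 67.7, 55.5 and 57.1 in B2m-null CD40. Mouse 2 of B2m-null isotype, at 59.1 CPM from 466 cells, was the one that overlapped the B2m-null CD40 group, and it also lay above control isotype mouse 4 at 56.6 CPM. Anti-CD40 raised Casp4 1.71-fold in B2m-null tumours (log2 change 0.78 ± 0.13, edgeR adjusted p = 5.40e-04), in 37 of 37 alternatives, and the genotypes differed under isotype (log2 change -0.72 ± 0.13, edgeR adjusted p = 0.00527). The second call held in 36 of 37 alternatives. Significance was lost without the control isotype replicate 1 pool (log2 -0.62, adjusted p = 0.169).

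In cDC the same 3 genes rose with anti-CD40 in B2m-null tumours, each without overlap between the groups. Casp1 stood at 35.8, 25.5, 46.8, 46.9 and 33.7 CPM with isotype and 73.0, 97.0, 56.8 and 73.5 with anti-CD40 (log2 change 1.00 ± 0.22, edgeR adjusted p = 0.00611). Casp4 went from 36.3, 40.9, 44.5, 39.1 and 25.6 to 97.4, 105, 50.4 and 45.5 CPM (log2 change 1.01 ± 0.24, edgeR adjusted p = 0.00931). Gsdmd went from 39.2, 51.1, 35.1, 52.9 and 48.1 to 88.2, 76.8, 63.3 and 71.8 CPM (log2 change 0.74 ± 0.16, edgeR adjusted p = 0.00509). With the lane as the unit, all 3 missed the threshold (adjusted p 0.0578 to 0.0843). The Casp4 call was also lost without the B2m-null CD40 replicate 1 pool (log2 0.56, adjusted p = 0.149), with cells thinned to 2000 UMIs (log2 0.71, adjusted p = 0.166) and under the stricter cell filter (log2 0.77, adjusted p = 0.0624). Other markers in the cDC gate moved with these genes: from B2m-null isotype to B2m-null CD40 the macrophage list summed to 1722 to 5078 and 362 to 1526 CPM, and the CD8 T list to 217 to 379 and 386 to 582 CPM. Their part in the result was not tested. In cDC of control tumours, Casp1 stood at 62.3, 50.3, 76.0, 54.8 and 47.5 CPM with isotype and 27.4 and 53.6 with anti-CD40, and Gsdmd at 53.2, 51.5, 53.5, 53.4 and 60.0 and 54.8 and 37.7 CPM. The effects differed between genotypes for Casp1 (log2 change 1.31 ± 0.35, edgeR adjusted p = 0.0357) and Gsdmd (1.00 ± 0.26, adjusted p = 0.0321). The Casp1 difference held in 22 of 35 alternatives. The threshold was missed without the B2m-null CD40 replicate 1 pool (log2 1.20, adjusted p = 0.0722), without the B2m-null CD40 replicate 2 pool (log2 1.49, adjusted p = 0.0637), without the B2m-null isotype replicate 1 pool (log2 1.20, adjusted p = 0.101), without the control isotype replicate 1 pool (log2 1.16, adjusted p = 0.116), without any 1 of B2m-null CD40 mouse 2 or 4, B2m-null isotype mouse 1 and control CD40 mouse 1 (log2 1.03 to 1.28, adjusted p 0.0530 to 0.186), with cells thinned to 2000 UMIs, with the lane as the unit, under limma-voom with the pool as a random block, with the per-cell marker gate and without cells holding T or B cell UMIs. The Gsdmd difference held in 21 of 35 alternatives. The call was lost without the B2m-null CD40 replicate 1 pool (log2 0.91, adjusted p = 0.0595), without the B2m-null CD40 replicate 2 pool (log2 1.14, adjusted p = 0.0573), without the B2m-null isotype replicate 1 pool (log2 0.88, adjusted p = 0.0728), without the control isotype replicate 1 pool (log2 1.06, adjusted p = 0.0894), without the control isotype replicate 2 pool (log2 0.95, adjusted p = 0.0616), without any 1 of B2m-null CD40 mouse 1 or 4 and control CD40 mouse 1 or 2 (log2 0.69 to 1.21, adjusted p 0.0539 to 0.383), at clustering resolution 2, with cells thinned to 2000 UMIs, with the lane as the unit, under limma-voom with the pool as a random block and with the per-cell marker gate. For Casp1 and Gsdmd the blocked fit gave adjusted p = 0.156 and 0.0832, and the lane as the unit gave 0.270 and 0.275. In B2m-null CD40 these values rest on 320 cDC of 4 mice and in control CD40 on 230 of 2, as cDC2 went from 6.77% to 1.07% of haematopoietic cells in B2m-null and from 5.46% to 0.563% in control tumours. Within the gate of B2m-null tumours, Casp1 averaged 49.4 ± 8.53 CPM in cDC2 with isotype and 92.5 ± 12.2 with anti-CD40. In the mature cluster it stood at 37.2, 12.96, 46.3 and 24.7 CPM in 4 isotype mice and 91.0 and 142 in 2 anti-CD40 mice, without overlap. In cDC1 it stood at 25.0, 17.4, 50.2, 22.4 and 28.6 CPM with isotype and at 18.8 CPM in the 1 anti-CD40 mouse with enough cells, which lies inside the isotype range. The cDC2 cluster went from 41.6% to 51.3% of the gate and the cDC1 cluster from 27.1% to 20.9%, and the part of this shift in the Casp1 result was not tested.

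Monocyte Casp1 stood at 200.3, 136, 186, 121 and 155 CPM in control isotype and 90.1 and 66.7 in control CD40, without overlap (log2 change -1.05 ± 0.31, edgeR adjusted p = 0.0313). In B2m-null tumours it stood at 67.5, 52.0, 88.5, 156 and 97.6 CPM with isotype and 116, 123, 146 and 108 with anti-CD40. These groups overlapped and did not pass (log2 change 0.31, edgeR adjusted p = 0.430). The direction of the means was opposite to that in control tumours, and the effects differed (log2 change 1.36 ± 0.39, edgeR adjusted p = 0.0312). The control tumour call held in 25 of 35 alternatives. Significance was lost without the control isotype replicate 1 pool (log2 -0.85, adjusted p = 0.190), without any 1 of control CD40 mouse 1 or 2 and control isotype mouse 1 or 3 (log2 -1.23 to -0.83, adjusted p 0.0534 to 0.464), under DESeq2, at clustering resolution 2, with cells thinned to 2000 UMIs, with the lane as the unit and under limma-voom with the pool as a random block. The difference held in 24 of 35 alternatives. The threshold was missed without the B2m-null CD40 replicate 2 pool (log2 1.21, adjusted p = 0.203), without the B2m-null isotype replicate 1 pool (log2 1.05, adjusted p = 0.1098), without the control isotype replicate 1 pool (log2 1.16, adjusted p = 0.120), without any 1 of B2m-null CD40 mouse 3, B2m-null isotype mouse 1 and control CD40 mouse 1 or 2 (log2 1.11 to 1.51, adjusted p 0.0552 to 0.261), under the stricter cell filter, with cells thinned to 2000 UMIs, with the lane as the unit and under limma-voom with the pool as a random block. Here the adjusted p was 0.0544 in the blocked fit, 0.0880 by lane, 0.185 with thinned cells and 0.0637 under the stricter filter. In the monocyte gate of control tumours the monocyte list summed to 9339 to 11087 CPM with isotype and 4810.2 to 7088 with anti-CD40, and the CD8 T list to 8.76 to 14.5 and 25.0 to 139 CPM; their part in the Casp1 result was not tested. Gsdmd in monocytes stood at 92.8, 91.0, 78.7, 86.8 and 69.7 CPM in B2m-null isotype and 161, 108, 105 and 149.8 in B2m-null CD40, without overlap (log2 change 0.71 ± 0.19, edgeR adjusted p = 0.0148). The call held in 30 of 36 alternatives. The call was lost without the B2m-null CD40 replicate 2 pool (log2 0.66, adjusted p = 0.202), without the B2m-null isotype replicate 1 pool (log2 0.72, adjusted p = 0.0592), without the B2m-null isotype replicate 2 pool (log2 0.63, adjusted p = 0.113), without B2m-null CD40 mouse 4 (log2 0.58, adjusted p = 0.0810), under the stricter cell filter and with cells thinned to 2000 UMIs. Casp4 in monocytes did not pass: the values were 246, 164, 162, 119 and 174 CPM in control isotype, 125 and 116 in control CD40, 92.8, 39.0, 118, 146 and 83.7 in B2m-null isotype and 116, 129, 81.5 and 143 in B2m-null CD40. The neutrophil marker list in the monocyte gate summed to 161 to 990.1 CPM in B2m-null CD40 against 39.0 to 187 in B2m-null isotype, and the CD8 T list to 6.97 to 61.7 against 0 to 8.44 CPM. The macrophage list in the same gate summed to 1536 to 2895 CPM in B2m-null CD40 against 2602 to 5498 in B2m-null isotype, groups that overlapped, and Gsdmd itself was lower in macrophages than in monocytes. The part of these lists in the monocyte results was not tested.

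Nlrp3, the sensor, passed in no gate or comparison. In macrophages it stood at 116, 122, 95.9, 83.3 and 83.4 CPM in control isotype, 74.1 and 75.3 in control CD40, 80.2, 115, 106, 90.0 and 49.4 in B2m-null isotype and 100.3, 72.0, 66.1 and 82.7 in B2m-null CD40. The CD40 effect was -0.28 ± 0.23, adjusted p = 0.418 in control and 0.11 ± 0.19, adjusted p = 0.709 in B2m-null tumours, with intervals of ± 2 SE from -0.73 to 0.18 and from -0.27 to 0.49 on the log2 scale. In monocytes it stood at 231, 230.4, 208, 165 and 220.3 CPM in control isotype, 340.4 and 174 in control CD40, 278, 260.0, 177, 136 and 142 in B2m-null isotype and 161, 154, 149 and 132 in B2m-null CD40. Both control CD40 mice lay above all B2m-null CD40 mice, a difference that missed the threshold (log2 change -0.69 ± 0.27, edgeR adjusted p = 0.129). In cDC Nlrp3 ran from 42.0 to 100.4 CPM over all mice. RNA of T cells was present in the macrophage gate at a low level that differed by antibody: 6 CD8 T markers summed to 7.31 to 16.8 CPM in control isotype, 38.2 to 46.9 in control CD40, 4.93 to 13.7 in B2m-null isotype and 16.9 to 30.9 in B2m-null CD40. Without cells holding 2 or more T or B cell UMIs, 21 of the 22 calls held. Median UMIs per macrophage ran from 2028.5 to 10506 over the B2m-null isotype mice and from 2284 to 3212 in control CD40. With cells of at least 2000 UMIs thinned to 2000 and all others left out, 12 of the 22 calls held. Among them were macrophage Casp1, Casp4 and Gsdmd after anti-CD40 in B2m-null tumours. The thinned fits thus also rest on fewer, deeper cells: median UMIs per monocyte were 1215 to 1786 in control CD40. The part of depth and of the lost cells in the lost calls was not tested.

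**Figure D3:**
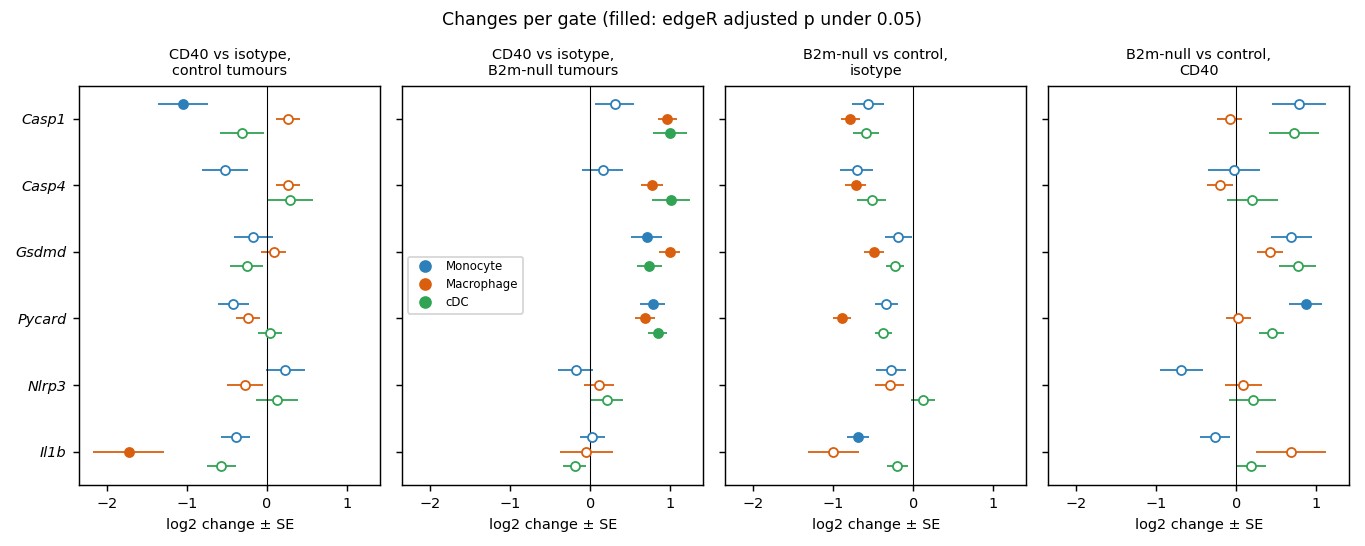
Log2 change ± SE (edgeR) of Casp1, Casp4, Gsdmd, Pycard, Nlrp3 and Il1b in monocytes, macrophages and cDC for the 4 comparisons; filled points have an adjusted p under 0.05. Casp1 and Gsdmd of macrophages rise by 0.97 and 1.00 with anti-CD40 in B2m-null tumours and by 0.26 and 0.08, with open points, in control tumours, and Nlrp3 has no filled point.

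The macrophage gate is made of 7 clusters whose sizes differed between the groups, so each gene was also compared within them. Cluster 3 (Ccl24, Arg1, Spp1, Fn1) had the most Il1b, 1032 ± 271 CPM in control isotype, and made up 25.0%, 4.64%, 27.3% and 12.0% of the gate in control isotype and CD40 and in B2m-null isotype and CD40. At clustering resolution 2, a cluster of 4133 cells led by Ccl24, Arg1, Fn1 and the monocyte gene Vcan stayed unnamed. Cluster 4 (H2-M2, Gpnmb, Il18bp), which had 74.6 ± 38.1 CPM of Il1b in control isotype, made up 2.31%, 45.1%, 0.605% and 11.1%, so that in control CD40 it was the largest. Cluster 18, led by the interferon-stimulated genes Rsad2, Ifit1 and Isg15, made up 11.6%, 1.26%, 4.32% and 5.24%. It held 1027 cells in control isotype and only 113 in control CD40. Within clusters the Il1b change was negative after anti-CD40 in control tumours in 7 of 7, with log2 changes from -3.26 to -0.28, of which 2 passed. Over all genes and clusters 6.88% of tests passed (1.24% to 13.4% per cluster). In cluster 18 it stood at 523, 697, 733, 323 and 500.4 CPM with isotype and 38.4 and 55.7 with anti-CD40 (log2 change -3.26 ± 0.57, edgeR adjusted p = 5.09e-04), and in cluster 5 (Mmp12, Gdf15) the change was -1.21 ± 0.31, adjusted p = 0.0110. In cluster 3 the groups stood at 1359, 1189, 946, 639 and 1026 and 819.6 and 777 CPM (-0.28 ± 0.32, adjusted p = 0.737). How much of the fall in the whole gate came from the change in make-up and how much from the change within clusters was not tested.

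**Figure D4:**
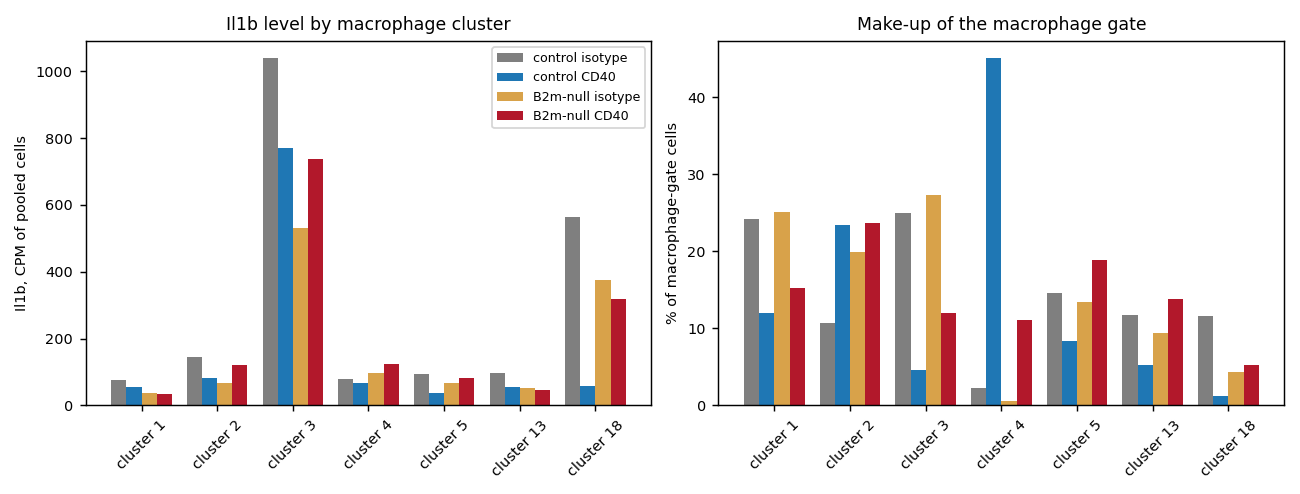
Left, Il1b CPM over the pooled cells of each macrophage cluster in the 4 groups; right, each cluster's percent of the macrophage gate. Cluster 3 holds the most Il1b and falls from 25.0% of the gate in control isotype to 4.64% in control CD40.

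Caspase changes were also seen within clusters, which hold cells of the same mice and so are not independent repeats. The part of gate make-up in the whole-gate caspase changes was not tested. After anti-CD40 in B2m-null tumours Casp1 had a positive change in 6 of 6 clusters tested and passed in 5, with values from 0.50 to 1.00. Casp4 passed in 4, Gsdmd in 4 and Il1rn in 5 of 6, all upwards, against 17.4% of tests over all genes and clusters (7.28% to 23.7% per cluster). The largest Gsdmd change was in cluster 13 (Birc5, Ccnb1 and other genes of dividing cells) (log2 change 1.61 ± 0.23, edgeR adjusted p = 1.97e-04). Il1a passed in 3, clusters 2, 3 and 18, with 1.59, 1.98 and 2.53 on the log2 scale. Under isotype, Casp1 and Casp4 were lower in B2m-null tumours in 4 and 4 of 6 clusters and Gsdmd in 1 (background 3.17%, 0.268% to 9.56% per cluster). Il1b, which missed the threshold over the whole gate, passed downwards in 3 (clusters 1, 3 and 13, with -1.19, -0.95 and -1.11). In control tumours anti-CD40 left Casp1 within -0.47 and 0.42 in the 7 clusters, with 1 call, downwards, in cluster 5 (log2 change -0.47 ± 0.14, edgeR adjusted p = 0.0320). Il1rn, which missed the threshold over the whole gate there, had a positive change in 7 of 7 clusters and passed in clusters 5 (0.90 ± 0.20, adjusted p = 0.00317) and 13 (0.82 ± 0.19, adjusted p = 0.0185). Cluster 5 held 379 ± 61.3 CPM of Il1rn in control isotype, 607 ± 26.1 in control CD40, 551 ± 237 in B2m-null isotype and 718 ± 92.2 in B2m-null CD40. The CD40 effects differed between genotypes for Il1b in clusters 18 (3.38 ± 0.69, adjusted p = 0.0147) and 5 (1.68 ± 0.39, adjusted p = 0.0190) for Casp1 in clusters 3 and 5 (1.14 and 1.13) and for Gsdmd in cluster 1 (0.93; background 3.26%, 0.465% to 5.48% per cluster). Between genotypes under anti-CD40, where the whole gate had no call, Il1b was higher in B2m-null tumours in clusters 18 (2.47 ± 0.58, adjusted p = 0.0455) and 4 (1.20 ± 0.25, adjusted p = 0.0157), and Casp1 in cluster 5 (0.55 ± 0.15, adjusted p = 0.0400), against 3.38% of tests over all genes and clusters (0.606% to 4.96% per cluster). Over the whole gate these 2 groups also differed in median UMIs per cell (2284 to 3212 in control CD40, 3265 to 7213 in B2m-null CD40). Their median mitochondrial share was 3.50% to 4.16% and 4.84% to 5.04%. The part of these differences was not tested. Il6 passed once, downwards, in cluster 1 after anti-CD40 in B2m-null tumours (-3.32 ± 0.94, adjusted p = 0.0133), and Nlrp3 once, downwards, in cluster 18 after anti-CD40 in control tumours (-1.04 ± 0.27, adjusted p = 0.0226). Cluster 4 held too few cells of B2m-null isotype mice for a test against them.

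**Figure D5:**
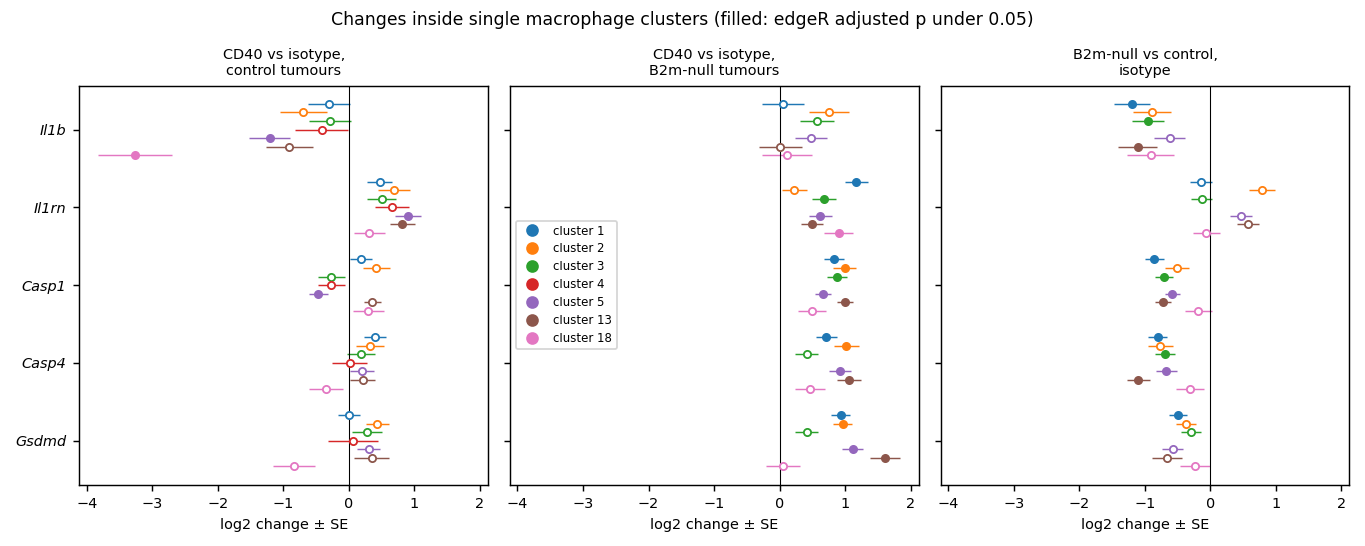
Log2 change ± SE (edgeR) of Il1b, Il1rn, Casp1, Casp4 and Gsdmd within each macrophage cluster for 3 comparisons; filled points have an adjusted p under 0.05. The Il1b points lie below 0 in all 7 clusters for anti-CD40 in control tumours. They are lowest in cluster 18, at -3.26, where control CD40 had 113 cells. The Casp1 points lie above 0 in all 6 clusters for anti-CD40 in B2m-null tumours.

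Myeloid clusters 9 and 11 were left unnamed, since too few markers of the class each matched best were raised. They were examined apart after their values were seen. A cluster of 3093 cells led by Ly6i, Cfb and Nos2, which also lead cluster 9, was named monocyte at clustering resolution 2. It was part of the monocyte gate at that setting. Cluster 9, led by Ly6i, Cfb, Fpr2 and Nos2, was 2.93%, 2.19%, 1.21% and 13.1% of haematopoietic cells in control isotype and CD40 and in B2m-null isotype and CD40. In it Nlrp3, which passed in none of the 4 gates, was higher after anti-CD40 in control tumours (log2 change 0.89 ± 0.18, edgeR adjusted p = 0.00348) and in B2m-null tumours (0.77 ± 0.23, adjusted p = 0.0320), where 6.81% and 9.8% of all genes passed. Its Nlrp3 stood at 168, 109.8, 109, 140.3 and 152 CPM in control isotype and 244 and 217 in control CD40. It stood at 144, 113 and 58.8 in B2m-null isotype and 202, 144, 136 and 156 in B2m-null CD40. Il1b rose there in B2m-null tumours (1.10 ± 0.28, edgeR adjusted p = 0.0152). In the macrophage clusters of B2m-null tumours its change was also positive, in 6 of 6 tested (log2 0.01 to 0.75), and 0 passed. The monocyte list in cluster 9 was lower after anti-CD40, at 3528 to 4899 and 2211 to 2266 CPM in control isotype and CD40 and at 3874 to 4939 and 2575 to 3117 in B2m-null isotype and CD40. The CD8 T list there was at 0 to 8.25 CPM with isotype and 19.1 to 42.6 with anti-CD40 in B2m-null tumours, the neutrophil list at 46.7 to 96.7 with isotype and 126 to 141 with anti-CD40 in control tumours, and the part of these lists was not tested. Cluster 11, led by Cxcl3, Arg1, Thbs1 and Vegfa, was 5.75%, 1.31%, 6.34% and 4.43%. There anti-CD40 lowered Il1b in control tumours (-1.09 ± 0.26, adjusted p = 0.0132; background 4.32%) and raised Il1rn in control (0.77 ± 0.22, adjusted p = 0.0370) and B2m-null tumours (0.85 ± 0.19, adjusted p = 0.00599; background 9.22%). In cluster 11 too the monocyte list was lower after anti-CD40, at 1980.3 to 3421 and 1229 to 1297 CPM in control and 1913 to 2499.9 and 1448 to 1669 in B2m-null tumours. Its macrophage list was at 7541 to 12819.8 CPM with isotype and 5313 to 6295 with anti-CD40 in B2m-null tumours, its CD8 T list at 6.60 to 18.6 with isotype and 30.1 to 46.3 with anti-CD40 in control tumours, and their part was not tested. Between genotypes under anti-CD40, 1 of 8 genes was higher in B2m-null tumours in cluster 9, where 172 of 6008 genes were. In cluster 11 it was 1 of 8, where 90 of 6530 were. The CD40 effect was more positive in B2m-null tumours for 1 of 8 genes in cluster 11, as for 107 of 6530. In cluster 9 this held for 0 of 8, against 80 of 6008. When monocytes and both clusters were joined to the macrophage gate, 13 of the 13 macrophage calls held. Il1r2 and Gsdmd were then also higher in B2m-null CD40 than in control CD40 (1.97 and 0.64 on the log2 scale; background 9.72%).

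Neutrophils held the highest Il1b, Il1rn and Il1r2 levels of the 4 gates, and in edgeR 0 of 9 genes passed in any comparison, where 0.122%, 0.122%, 0%, 0.0244% and 0.0244% of all genes did in the 5 comparisons. Of the 45 tests, 6 had an unadjusted p under 0.05, and DESeq2 called 0. Il1b stood at 4347, 2644 and 6482 CPM in 3 control isotype mice, 2733 and 1277 in the 2 control CD40 mice, 4038 and 2739 in 2 B2m-null isotype mice and 3726, 3411, 3059 and 6879 in the 4 B2m-null CD40 mice. The change with anti-CD40 in control tumours was -1.06 ± 0.49, adjusted p = 0.482, with the isotype and CD40 mice overlapping. Il1rn stood at 1559, 624 and 923, 1126.5 and 426, 831 and 745 and 472, 728, 734 and 1032 CPM in the same order of groups. Il1r2 stood at 419.7, 432 and 648, 629.5 and 199, 718 and 361 and 373, 315, 441 and 897 CPM. Casp4 stood at 149.9, 99.8 and 109.9, 124 and 75.4, 83.1 and 31.6 and 199, 155, 110.3 and 81.5 CPM, with a CD40 effect of 1.19 ± 0.42, adjusted p = 0.423 in B2m-null tumours. For none of these genes did the isotype and CD40 mice of a genotype separate. Over all neutrophil samples Nlrp3 ran from 99.4 to 527, Casp1 from 16.6 to 149, Gsdmd from 0 to 81.5, Il1a from 16.2 to 179.9 and Il6 from 0 to 253 CPM. Marker levels varied within the gate. In control isotype and CD40 the neutrophil markers summed to 9084 to 24488 and 48757 to 82375 CPM. The CD8 T markers summed to 0 to 43.9 and 921 to 969 CPM, and the macrophage markers to 1769 to 5636 and 621 to 4289. In B2m-null isotype and CD40 the neutrophil markers summed to 11964 to 25397 and 14711 to 83811 CPM. The CD8 T markers summed to 4.51 to 155 and 143 to 495 CPM, and the macrophage markers to 4185 to 9830 and 3828 to 9569. In the macrophage gate of control isotype, the macrophage markers summed to 13159 to 17329 CPM. The part of these markers in the neutrophil values was not tested.

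From a list of 45 further genes of the pathway, 40 could be tested in macrophages. After anti-CD40 in B2m-null tumours 6 were higher and 7 lower, where 15.9% and 15.6% of all genes were. In control tumours 4 were higher and 2 lower, where 11.2% and 9.12% were; the median changes were -0.06 and -0.03. Between genotypes 1 was higher and 4 lower in B2m-null tumours under isotype, where 2.85% and 3.71% of all genes were. Under anti-CD40 1 was higher and 5 lower, against 4.82% and 6.19%, and the CD40 effect differed for 4, each more upward in B2m-null tumours, where it differed for 15.4% of all genes and upwards for 7.4%. Pycard, which encodes the adaptor ASC, had a macrophage level of 491 ± 67.4 CPM in control isotype, 378 ± 44.4 in control CD40, 274 ± 28.6 in B2m-null isotype and 388 ± 19.0 in B2m-null CD40. It rose with anti-CD40 in B2m-null tumours in macrophages (log2 change 0.69 ± 0.12, edgeR adjusted p = 5.70e-04), monocytes (0.78 ± 0.15, adjusted p = 0.00101) and cDC (0.85 ± 0.12, adjusted p = 2.40e-04). In control macrophages it was not shown to change (-0.23 ± 0.15, adjusted p = 0.284). It was lower in B2m-null macrophages under isotype (-0.89 ± 0.11, adjusted p = 0.00261), and its CD40 effect differed between genotypes in all 3 gates (0.92, 1.21 and 0.82). Il18bp, the secreted antagonist of IL-18, rose with anti-CD40 in macrophages of both genotypes (1.18 in control, 1.21 in B2m-null) and in B2m-null monocytes and cDC (1.45 and 1.74). Il18bp was lower in B2m-null than in control tumours under isotype in macrophages, monocytes and cDC (-1.10, -1.23 and -1.23). Casp12, the neighbour of Casp4, rose in macrophages of control (1.60 ± 0.31, adjusted p = 0.00201) and B2m-null tumours (1.28 ± 0.34, adjusted p = 0.00829), and Socs3, a feedback inhibitor of IL-6 signalling, rose in B2m-null tumours (0.98 ± 0.13, adjusted p = 7.97e-05). Il18r1 rose in control tumours in macrophages (1.65) and cDC (1.70); T and NK cells also express it, the CD8 T markers summed to 323 to 579 CPM in cDC of control isotype and 613 to 951 in control CD40, and their part was not tested.

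Lower after anti-CD40 in B2m-null macrophages were the IL-33 receptor Il1rl1 (log2 change -2.57 ± 0.40, edgeR adjusted p = 2.72e-04), the NLRP3-binding Txnip (-0.83 ± 0.18, adjusted p = 0.00271) and the shared co-receptor Il1rap (-0.65 ± 0.16, adjusted p = 0.00697). Il1rl1 was higher in B2m-null than in control macrophages under isotype (1.72 ± 0.34, adjusted p = 0.00846). In control tumours the signalling adaptor Myd88 (-0.59 ± 0.12, adjusted p = 0.00224) and the deubiquitinase Brcc3 (-0.50 ± 0.12, adjusted p = 0.00586) were lower. Socs3 was lower in B2m-null than in control macrophages under isotype (-0.74), and under anti-CD40 the genotypes differed by 0.55 for Brcc3, -1.17 for Casp12, -1.07 for Il18bp and -0.80 for the sensor Naip5. The CD40 effect also differed between genotypes for Brcc3 (0.77) and Socs3 (0.75) in macrophages and for Il18bp (1.96) in monocytes. In B2m-null macrophages the rises of Casp12, Il18bp, Socs3 and Pycard and the falls of Il1rl1 and Txnip held in every alternative that tested them. The other macrophage calls named from the list held in 24 to 35 of 35 or 36. Of those, the Il1rl1 difference under isotype and the Il18bp difference under anti-CD40 were lost under limma-voom with the pool as a random block. Outside macrophages at most 4 genes of the list passed in any gate and comparison. After anti-CD40 in B2m-null tumours these were 4 of 28 in monocytes and 4 of 31 in cDC, shares near the 13.3% and 11.3% of all genes that passed there. In control tumours 2 passed in each gate, against 8.31% and 3.55% of all genes. In monocytes, of 28 tested, anti-CD40 lowered Il1rap (-1.12) and Txnip (-0.81) in B2m-null tumours and raised the inhibitory kinase Irak3 (1.03) and lowered Il18rap (-3.38, 1 UMI in control CD40) in control tumours. Pycard was also higher in B2m-null than in control monocytes under anti-CD40 (0.87). In cDC, of 31 tested, Socs3 rose (0.48) and Traf6 fell (-0.79) in B2m-null tumours, Il18rap rose in control tumours (0.98), and Myd88 was lower in B2m-null tumours under isotype (-0.39). The last 4 held in 23 of 36, 12 of 36, 24 of 35 and 15 of 36 alternatives, and each was lost under limma-voom with the pool as a random block. For Il18rap, as for Il18r1, the part of the higher CD8 T markers in cDC of control CD40 was not tested. The cDC changes of Pycard, Il18bp and Il18r1 held in 25 of 35 (the Pycard difference of effects) or more. In monocytes Il1rap held in 19 of 34 and Il18rap in 21 of 28, the latter lost in the blocked fit, and the other named calls in 24 to 34 of 35 or 36. In neutrophils 0 of 19 passed.

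The genes whose levels were most like those of each of the 9 over 55 values (named cell classes by group, pooled cells) were found by Pearson's r of log2(CPM + 1) among 11997 genes; the values share lanes and depth, and r is a description. Il1b was most like Cd14 (r = 0.93), Osm (r = 0.92) and Cxcl2 (r = 0.92), and Nlrp3 most like Cd14 (r = 0.95), Cxcl2 (r = 0.94) and Atf3 (r = 0.94), so that both had Cd14 and Cxcl2 among their 3. Il1rn was most like Cxcl2 (r = 0.95), Clec4d (r = 0.95) and C5ar1 (r = 0.94), Il1a most like Acod1 (r = 0.88), Hcar2 (r = 0.88) and Fpr1 (r = 0.87) and Il6 most like Thbs1 (r = 0.85), Anxa3 (r = 0.84) and Hgf (r = 0.84). Il1r2 had the weakest likeness, with Cd80 (r = 0.75), Ifitm1 (r = 0.74) and Slc22a15 (r = 0.73). Casp1 was most like Cyba (r = 0.86), Trafd1 (r = 0.83) and Pycard (r = 0.82), the last of which encodes the adaptor described above. Casp4 was most like S100a6 (r = 0.78), Rnf19b (r = 0.73) and Gch1 (r = 0.73), and Gsdmd most like Sbno2 (r = 0.86), Gsap (r = 0.85) and Samhd1 (r = 0.84).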

How the data were processed

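Gene UMI counts and hashtag counts per barcode were used as the authors deposited them, as whole-number counts. Per the labels, the libraries were 10x single cell 3' v3 with feature barcoding, and per the submitters' processing notes the tools were Cell Ranger 3.0.0 and bcl2fastq 2.20.0.422 with the mm10 genome. Barcodes were assigned to mice from the hashtag counts by a mixture model (at least 20 hashtag counts, posterior at least 0.9), and 13005 hashtag doublets (2 or more hashtags over their background median + 2.5 SD) were removed, while 20017 barcodes stayed unassigned. Doublets of cells from the same mouse were not searched for. Of 116552 barcodes, 88782 with at least 200 genes, at most 10% mitochondrial counts and no call as hashtag doublet were clustered (2000 variable genes without the 9 genes, 40 components, Leiden resolution 1, 29 clusters), and 71476 of them had a mouse. Clusters were named from marker lists (at least 3 markers raised), so a name means cells like that class. Clusters 7, 9 and 11 raised too few markers and stayed unnamed.

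Counts were summed per mouse and gate (at least 20 cells), filtered with filterByExpr, scaled with TMM and tested with the quasi-likelihood test of edgeR 4.0.16 in R 4.3.3 over the 4 groups, with Benjamini-Hochberg adjustment over all genes of a gate. A mean is given ± SD over mice and a log2 change ± SE. Neighbouring gates were compared by an exact two-sided paired permutation test of log2(CPM + 1) over mice, adjusted over 54 tests. The fit was tested on simulated data. Alternatives used DESeq2 1.42.0 and limma 3.58.1; clustering used scikit-learn 1.9.0, igraph 0.11.9 and leidenalg 0.10.2. The 9 genes, the pathway list, the marker lists and the tests were chosen with earlier results of these data known. All 9 genes are named in every gate; of the pathway list, at most the 3 largest changes in each direction per gate and comparison are named, apart from the Pycard rise in B2m-null macrophages, named after its value was seen, and for likeness the 3 closest genes. CPM precision follows from the UMIs of a sample: single counts decide low values such as Il6 and Il1a, and p-values measure the spread between hashtagged mice. Alternatives were RLE scaling, the lane as the unit, thinned cells, other cell and count filters, clustering resolution 2, a per-cell marker gate, fits on the groups of a contrast, the replicate number as a block and fits without each mouse or pool. The widened macrophage gate, totals without TMM and the fits within macrophage clusters and within clusters 9 and 11 were added after seeing the data.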

Additional observations from a re-analysis of the deposited data

Results flagged for a closer look

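In 5 of 89 groups of 4 or 5 mice, 1 mouse stood far from the rest, where chance gives about 1 in 20. In macrophages, Gsdmd of B2m-null CD40 mouse 2 was 64.2 CPM against 43.7 to 47.1 CPM in the others. Il1rn of B2m-null isotype mouse 3 was 371 CPM against 159.6 to 212 CPM in the others. In cDC of control isotype, Gsdmd of mouse 5 was 60.0 CPM against 51.5 to 53.5 CPM in the others. There, Il1rn of mouse 3 was 85.9 CPM against 48.2 to 54.1 CPM in the others. In monocytes, Il1r2 of control isotype mouse 4 was 77.09 CPM against 12.08 to 20.03 CPM in the others.

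The CD40 effect differed between tumour genotypes by the interaction term in 6 tests, each with the more positive effect in B2m-null tumours (log2 difference of the effects ± SE, edgeR adjusted p). In macrophages these were Il1b (1.68 ± 0.54, adjusted p = 0.0436), Casp1 (0.71 ± 0.20, adjusted p = 0.0240) and Gsdmd (0.91 ± 0.21, adjusted p = 0.00991). In monocytes it was Casp1 (1.36 ± 0.39, adjusted p = 0.0312). In cDC they were Casp1 (1.31 ± 0.35, adjusted p = 0.0357) and Gsdmd (1.00 ± 0.26, adjusted p = 0.0321). Each rests on 2 control CD40 mice of 1 pool, and each was lost with the lane as the unit. Only macrophage Casp1 and Gsdmd still passed under limma-voom with the pool as a random block.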

How the results depend on the processing

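The counts of tests passed in the 34 pairs of gene and gate were 3 for anti-CD40 in control tumours, 9 in B2m-null tumours, 4 between genotypes under isotype, 0 under anti-CD40 and 6 for the difference of the effects, and 9 steps of the gate order. Of 797 alternatives run on single tests, 682 kept the call and 114 lost it. The remaining 1 concerns a test outside the 22 calls and reversed: Il1rn in cDC after anti-CD40 in B2m-null tumours was 1.21 (adjusted p = 0.00502) with the per-cell marker gate, against -0.04 (adjusted p = 0.967) in the cluster gate; the cause was not tested. Anti-CD40 in control tumours gave 5 with only the groups of the contrast and 0 to 4 with a mouse or pool left out (0 without control CD40 mouse 2 or without control isotype replicate 1, 1 without control CD40 mouse 1). In B2m-null tumours leaving out a mouse or pool gave 7 to 10. Between genotypes under isotype the count was 2 with the lane as the unit, 11 with no filter on low counts, and 0 to 8 with a mouse or pool left out (0 without control isotype replicate 1, 2 without B2m-null isotype replicate 1, 7 without B2m-null isotype replicate 2, 8 without B2m-null isotype mouse 4). Under anti-CD40 it was 1 at clustering resolution 2, 1 with no filter, 5 with the per-cell marker gate, 2 with the widened macrophage gate (chosen after seeing the data) and 0 to 1 with a mouse or pool left out (1 without B2m-null isotype replicate 2 or its mouse 4). The difference of the effects was 2 with cells thinned to 2000 UMIs, 0 with the lane as the unit, 2 under limma-voom, 10 with the per-cell marker gate and 0 to 7 with a mouse or pool left out. It was 0 without control CD40 mouse 1 or control isotype replicate 1, 1 without B2m-null isotype replicate 1 or B2m-null CD40 replicate 2, 2 without control CD40 mouse 2, and 3 without B2m-null isotype mouse 1 or B2m-null CD40 mouse 4. These counts are given without the share of all genes that passed under the same setting. They therefore do not tell whether a change in count is particular to the 9 genes. With the lane as the unit, which also counts cells given to no mouse, 10 of the 22 calls held. With thinned cells, which leaves out those under 2000 UMIs, 12 held. RLE, totals without TMM and at least 50 cells per mouse each kept 22, and DESeq2 21. With the replicate number as a replicate block, over the groups that have 2 pools, the counts were 9 for anti-CD40 in B2m-null tumours and 4 between genotypes under isotype, and 13 of 13 calls held. Deviations of same-numbered pools from their group means correlated at -0.175 to 0.173 over genes, and the numbers were not taken as pairs. The highest values were those between B2m-null isotype and B2m-null CD40, at 0.1465 in monocytes, 0.169 in macrophages and 0.173 in cDC. The other pairs of groups ran from -0.175 to 0.0511. The depth limits neutrophils most, and Il6, Il1a and macrophage Il1r2 rest on few UMIs per mouse.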

Other observations

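Some of the 9 genes were also found outside the myeloid gates, where nothing was tested. Values are the mean ± SD over mice. Il1r2, the decoy receptor, stood at 91.6 ± 35.6 CPM (n = 5) in regulatory T cells of control isotype, 44.3 ± 13.6 CPM (n = 2) of control CD40, 151 ± 30.4 CPM (n = 3) of B2m-null isotype and 63.8 ± 44.9 CPM (n = 4) of B2m-null CD40. In macrophages its group means were 5.78, 1.32, 6.72 and 2.31 CPM in the same order. In other CD4 T cells it was 55.2 ± 70.0 CPM (n = 4) in control isotype and 160.3 ± 101 CPM (n = 4) in B2m-null CD40. Il6 in fibroblast-like cells was 82.9 ± 50.6 CPM (n = 5) in control isotype, 122 ± 28.3 CPM (n = 2) in control CD40 and 69.5 ± 40.4 CPM (n = 3) in B2m-null CD40, where its monocyte means were 35.6, 21.9 and 26.8 CPM. Casp4 in fibroblast-like cells was 81.5 ± 27.3 CPM (n = 5), 123 ± 15.9 CPM (n = 2) and 100.2 ± 6.97 CPM (n = 3) in these groups.

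In CD8 T cells Casp1 averaged 26.9 ± 5.28 CPM (n = 5) in control isotype, 31.3 ± 7.63 CPM (n = 2) in control CD40, 35.7 ± 9.61 CPM (n = 3) in B2m-null isotype and 58.8 ± 8.44 CPM (n = 4) in B2m-null CD40. The lowest group mean was that of control isotype here and that of B2m-null isotype in macrophages. In the mature dendritic cell cluster, which is part of the tested cDC gate and was not tested on its own, Casp1 was 51.2 ± 10.6 CPM (n = 5), 37.8 CPM (n = 1), 30.3 ± 14.5 CPM (n = 4) and 117 ± 36.2 CPM (n = 2) in the same order.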
